A study of Homo sapiens with 16 samples.

Results

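U343, an established cell line grown from a human glioblastoma, was transfected with a miR-137 mimic or with a control mimic, and its total RNA was sequenced. Of the 16 libraries of the series, 4 are of this kind: 2 of the control mimic and 2 of the miR-137 mimic, taken by the cell line, assay and transfection named in their labels. All 4 cultures were kept in DMEM with fetal bovine serum, received a mimic at 25 nM by reverse transfection with Lipofectamine RNAiMax in 10 cm dishes, and were harvested after 48 hours. The controls thus share the lipid, the dose and the receipt of a mimic, but their mimic is a different one. The other libraries hold PABP-bound RNA of the same line (RIPSeq) and both kinds of RNA of the U251 line, and are used here only where the same genes are set beside each other. A mimic gives a short burst of far more miRNA than cells make, 1 line stands for the tumour, and nothing says that the replicates came from separate experiments, so the spread between them may be technical. The question put to these libraries was which transcripts change in level when miR-137 is restored.

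MicroRNAs guide Argonaute proteins to transcripts, mostly in the 3′ untranslated region, and pairing of the seed near the 5′ end of the miRNA leads to loss of the adenosine tail, decay of the transcript and less translation. miR-137 is abundant in neurons, is low in gliomas, and is known for slowing the proliferation of glioma cells and for favouring neuronal differentiation. Synthetic duplexes can also be read as viral RNA by cytosolic sensors, which induces type I and type III interferons and through them a large set of antiviral genes. The mature sequence from RefSeq (GRCh38.p14, chromosome 1, bases 98046091 to 98046113, minus strand) is shown with the seed, bases 2 to 8, in capitals.
hsa-miR-137-3p: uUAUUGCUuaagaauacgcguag

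The gene MIR137 itself had 0 and 1 reads in control replicates 1 and 2, and 1 and 3 reads in miR-137 replicates 1 and 2. The ratio over both miR-137 libraries was 3.98 with a 95% exact interval of 0.394 to 196, so the counts, which come from longer RNA, cannot check the transfection. The depth was 45134766 and 37952273 counted reads in the controls and 41599511 and 43909827 in the miR-137 libraries. Of 10 markers of glioma lines, 8 were at or above 1 CPM in control replicate 1, among them the astrocyte filament GFAP at 4488 and 4708 CPM in the controls and the neural transcription factor SOX2 at 576 and 625 CPM, while the oligodendrocyte factor OLIG2 and the astrocyte enzyme ALDH1L1 stayed under 0.185 CPM. CPM scale the reads of each gene to a common library total, adjusted by TMM factors. The 4 immune markers summed to 0.217 to 0.617 CPM and the 2 erythroid genes to 0 to 0.0528 CPM. The adhesion genes CDH5, at 8.54 to 27.2 CPM, and CDH1, at 63.8 to 120 CPM, which mark endothelium and epithelium in tissue, were present in all 4 libraries.

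The largest difference between the miR-137 libraries lay in interferon-stimulated genes, but it was not the only one. The replication-dependent histone genes, for example, had median log2 fold changes of -1.11 in replicate 1 and -1.89 in replicate 2, and further genes are given below. The summed level of 40 interferon-stimulated genes was 1260 and 1204 CPM in the controls, 1240 CPM in miR-137 replicate 1 and 27547 CPM in miR-137 replicate 2, which was 22.4-fold above the control mean. Each miR-137 library was therefore compared with the 2 controls on its own, and a change is called common where both comparisons gave it in the same direction at an adjusted p under 0.05. These comparisons share their controls, and in each the lone miR-137 library was assumed to vary like the controls, whose difference alone gives the spread. The median absolute log2 ratio over genes was 0.09 between the controls but 0.20 between the miR-137 replicates. The assumed spread is therefore likely too small, and the counts of genes called in these comparisons too large.

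In replicate 1, 2951 of 15281 genes tested were lower than in the controls (19.3%) and 2811 were higher (18.4%). In replicate 2, 3152 of 15509 were lower (20.3%) and 2994 higher (19.3%). Of the 15196 genes tested in both comparisons, 2272 were lower in both (15.0%) and 1712 higher in both (11.3%), whereas 117 were lower in replicate 1 and higher in replicate 2 and 15 the reverse. The median of the common falls, on the log2 scale, was -0.83 in replicate 1 and -0.80 in replicate 2, and the common rises 0.77 and 0.78, so most were of modest size. The fit of both miR-137 libraries against both controls called 1764 of 15088 genes lower (11.7%) and 1254 higher (8.31%), of which 1754 and 1219 were also among the common changes. Leaving out control replicate 1 or control replicate 2 from that fit left 0 genes called in either direction in edgeR, with 2776 and 2675 genes at an unadjusted p under 0.05, so each of its calls needs both controls. The stricter rule of the study, Fisher's exact test in every one of the 4 control and miR-137 pairs with limits of 2 on the odds ratio and 0.001 on the adjusted p, named 595 genes lower (2.88% of 20626) and 311 higher (1.51%). All 595 and all 311 were among the common changes, but Fisher's test compares libraries and knows nothing of their spread.

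**Figure D1:**
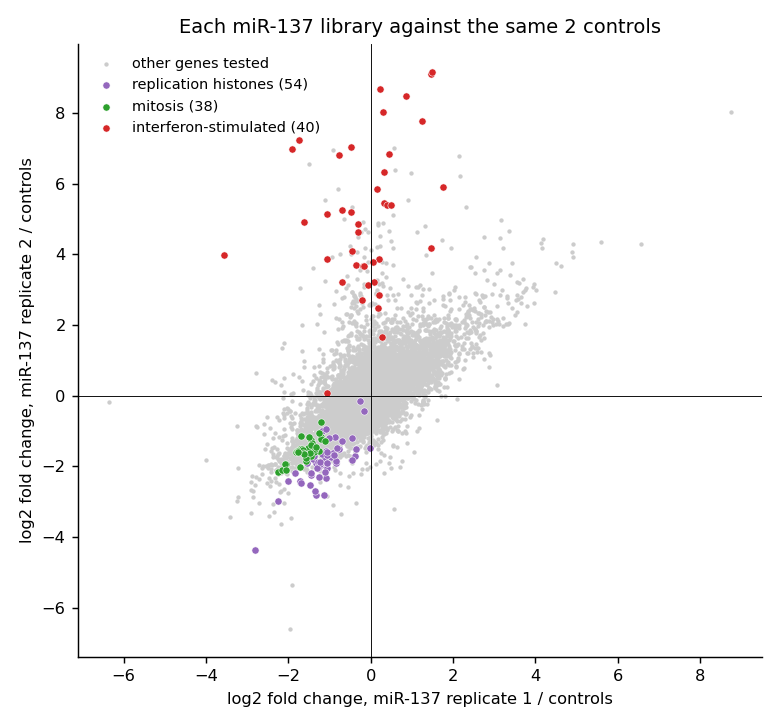
Log2 fold change of each gene tested in miR-137 replicate 1 (x axis) and in miR-137 replicate 2 (y axis), each against the same 2 controls, so that both axes share control error. The 38 mitosis genes (green) and the 54 replication histone genes (violet) lie below 0 on both axes, while the 40 interferon-stimulated genes (red) spread around 0 for replicate 1, from -3.56 to 1.75, and reach 9.16 for replicate 2.

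The deepest common falls included genes with known roles in the cell cycle and in pigment cell identity. CDK6, the kinase that with D cyclins opens the G1 to S transition, had 544 and 643 CPM in the controls and 81.3 and 91.6 CPM with miR-137. The fall was 7.31-fold in replicate 1 and 6.48-fold in replicate 2, with a log2 fold change of -2.78 (SE 0.14, n = 2 and 2, edgeR adjusted p = 0.00647). MITF, the master regulator of melanocytes and an established target of miR-137, fell from 18.0 and 19.7 CPM to 2.49 and 1.89 CPM, a log2 fold change of -3.10 (SE 0.20, edgeR adjusted p = 0.00647). CXCL14, an orphan chemokine, fell from 666 and 741 CPM to 75.3 and 97.3 CPM (log2 fold change -3.03, SE 0.17). In each of these the groups lay far apart and the replicates close together.

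CD83, a surface immunoglobulin known from dendritic cells, went from 8.29 and 11.1 CPM to 1.02 and 1.23 CPM (log2 fold change -3.11, SE 0.24). SLC25A5, which exchanges ADP for ATP across the inner mitochondrial membrane, went from 417 and 477 CPM to 63.6 and 78.5 CPM (-2.65, SE 0.16), and DYNLT3, a light chain of dynein, from 62.8 and 56.1 CPM to 7.95 and 11.1 CPM (-2.65, SE 0.20). NT5DC2 went from 130 and 126 CPM to 24.8 and 15.2 CPM (-2.68, SE 0.26). Its hg18 span (chromosome 3, 52533425 to 52544133, minus strand) overlaps that of STAB1 by 127 bases, and that of SLC25A5 (chromosome X, 118486391 to 118489385, plus strand) overlaps LOC100303728 by 721 bases. Strand was not stated to be used in counting, and SLC25A5 also has processed pseudogenes, so the level of these genes is uncertain. Overlaps of 46 and 4 bases also touch ESRRA and RFC4, and CXCL10 lies over ART3 for 2380 bases, where ART3 had 3 reads in the controls and 13 with miR-137.

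The other 5 deep falls were of genes at 22.8 CPM or less in the controls. PDLIM3, an actin-associated protein, had 106 and 90 reads in the controls and 15 and 12 with miR-137, and FMO2, a flavin monooxygenase, 2.99 and 2.74 CPM against 0.380 and 0.448 CPM. HIST1H1T, the linker histone of the testis, had 100 and 70 reads against 12 and 4, and KLF15, a Krüppel-like transcription factor, 150 and 122 against 30 and 11. SLC46A3, a lysosomal transporter, had 1051 and 839 reads against 185 and 98. For HIST1H1T, KLF15 and SLC46A3 the miR-137 replicates differed more than the controls did. All 12 of these genes were chosen for passing the fit of both replicates and the rule of the study in all 4 pairs. That choice itself sets every miR-137 value below both controls, so this separation is not added support.

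The largest common rises included genes nearly silent in the controls. STMN4, a neuronal stathmin that destabilizes microtubules, had 2 and 0 reads in the controls and 488 and 294 with miR-137. The ratio of summed reads per library total was 389, with a 95% exact interval of 107 to 3216 that covers counting error only. FOXJ1, the transcription factor that starts the programme of motile cilia, had 5 and 5 reads against 486 and 101, a ratio of 97.0 (52.3 to 204) in replicate 1 and 20.0 (10.4 to 43.0) in replicate 2, so its size differed between replicates while its direction did not. CELF3 and CELF5, RNA-binding splicing regulators of the nervous system, had 8 and 9 reads against 420 and 180, and 11 and 5 reads against 244 and 160. HAP1, which binds huntingtin and carries cargo along microtubules in neurons, had 13 and 13 reads against 240 and 290.

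VGF, a precursor of neuropeptides, was the most abundant gene in reads among these rises, at 37.0 and 20.3 CPM in the controls and 871 and 435 CPM in the miR-137 libraries (log2 fold change 4.51, SE 0.52, edgeR adjusted p = 0.0118). IL11, a cytokine of the IL-6 family, rose from 1.97 and 1.42 CPM to 30.1 and 34.3 CPM (4.24, SE 0.21, edgeR adjusted p = 0.00647). IL6 itself had 7 and 7 reads in the controls and 64 and 227 with miR-137. KRT75, a keratin, rose from 1.62 and 0.871 CPM to 13.1 and 32.6 CPM, and C7orf51 from 0.238 and 0.264 CPM to 6.22 and 3.23 CPM. IL6 and KRT75 were higher in replicate 2 than in replicate 1, and FOXJ1, CELF3, VGF and C7orf51 were higher in replicate 1. The choice of the 10 genes by the rule of the study required each miR-137 library to lie above both controls.

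**Figure D2:**
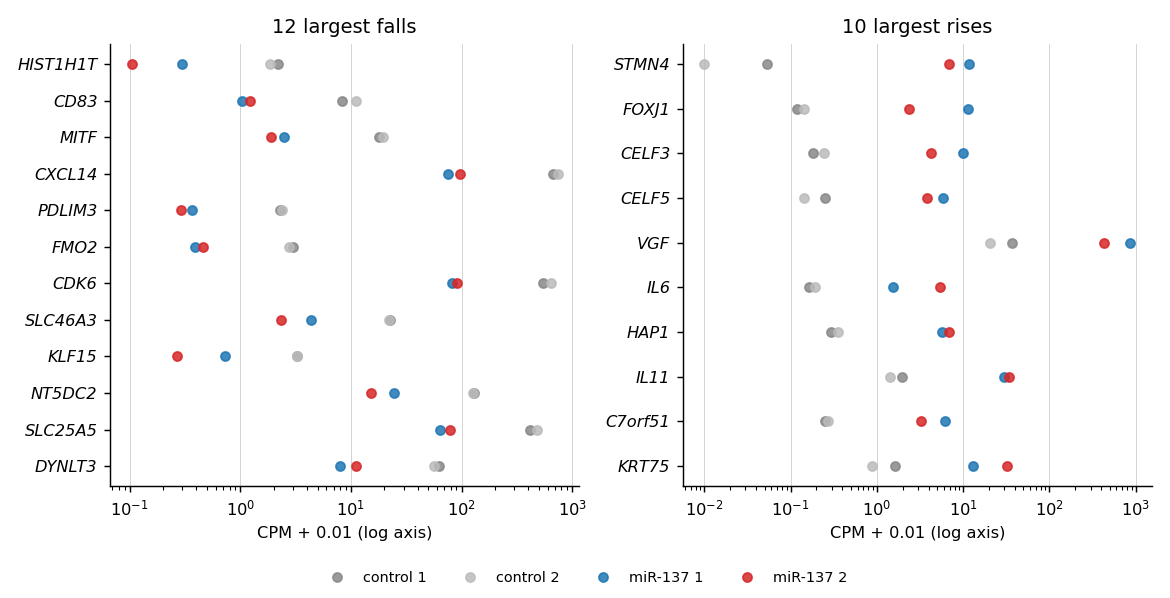
CPM (plus 0.01, log axis) in each of the 4 libraries for the 12 deepest falls and the 10 steepest rises. The choice of genes required both miR-137 points (blue for replicate 1, red for replicate 2) to lie on the same side of both control points (grey). FOXJ1 has the widest gap between the miR-137 replicates among the rises, 11.5 against 2.38 CPM.

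The study singled out 9 oncogenes as miR-137 targets in glioma. Of these, 6 were lower, 2 were higher and 1 was too low to test, where 11.7% of all genes were lower and 8.31% higher. YBX1, which binds DNA and RNA, fell from 1074 and 1163 CPM to 201 and 288 CPM, a log2 fold change of -2.19 (SE 0.20, edgeR adjusted p = 0.00841). AKT2, a kinase of the PI3K pathway, fell from 103 and 96.5 CPM to 29.1 and 42.7 CPM (-1.47, SE 0.21). CDC42, a small GTPase of cell shape and migration, fell from 113 and 103 CPM to 36.5 and 34.5 CPM (-1.60, SE 0.10). MTDH, a component of the RNA-induced silencing complex, fell from 305 and 313 CPM to 149 and 147 CPM (-1.06, SE 0.09), and the cytokine TGFB2 from 132 and 143 CPM to 71.7 and 62.0 CPM (-1.04, SE 0.12). CDK6, given above, was the sixth. The list was chosen by the study with these libraries among its data, so its direction is not independent evidence.

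CD24 and MSI1 went the other way. CD24, a surface glycoprotein, rose from 30.3 and 25.7 CPM to 59.2 and 56.4 CPM, a log2 fold change of 1.04 (SE 0.12, edgeR adjusted p = 0.0120), and MSI1, an RNA-binding protein of neural stem cells, rose from 17.5 and 15.3 CPM to 26.3 and 25.6 CPM (0.66, SE 0.12, edgeR adjusted p = 0.0300). In U251 total RNA the same genes were lower, by log2 fold changes of -1.67 and -0.84, and the interaction of transfection with cell line was 2.70 (SE 0.19, edgeR adjusted p = 0.000242) for CD24 and 1.499 (SE 0.33, edgeR adjusted p = 0.0134) for MSI1. CD24 has near-identical copies in the genome, so its count is uncertain. KIT, a receptor tyrosine kinase, had 1 and 2 reads in the controls and 2 and 8 with miR-137, a ratio of 3.31 with an interval of 0.853 to 18.7, so a change was not detectable at this depth.

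Of a list of 16 genes reported as miR-137 targets before, 13 were lower in the fit of both replicates, where the background is 11.7%, and none was higher. The list was chosen with earlier results of these data known, so its direction is not independent evidence. It does not hold every such gene. The paper also names COX-2, RTVP-1 and CSE1L, and MSI1, described above as higher, is another reported target. The median log2 fold change was -1.57, beside 0.02 over all genes tested. ESRRA, an orphan nuclear receptor, fell from 81.5 and 91.6 CPM to 21.0 and 18.9 CPM (-2.12, SE 0.12), and UGP2, which makes UDP-glucose, from 62.0 and 61.7 CPM to 12.6 and 18.7 CPM (-1.99, SE 0.21). EZH2, the methyltransferase of Polycomb complex 2, fell from 106 and 107 CPM to 31.7 and 35.6 CPM (-1.66, SE 0.10), and KDM1A, a histone demethylase, from 136 and 125 CPM to 56.8 and 57.5 CPM (-1.19, SE 0.09). The other falls were of AHCYL1, CTDSPL, EIF2S3, FAM98A, SLC25A5, SPHK2, LAPTM4B, MIB1 and MITF. MIB1, a ubiquitin ligase of the Notch pathway, fell least, from 93.6 and 80.2 CPM to 53.5 and 56.7 CPM (-0.66, SE 0.11, edgeR adjusted p = 0.0265). CTBP1, a corepressor, had 237 and 241 CPM in the controls and 209 and 205 CPM with miR-137 (-0.21, SE 0.09, edgeR adjusted p = 0.169). KDM5B and SEMA4D had log2 fold changes of -0.41 (edgeR adjusted p = 0.0957) and -0.60 (edgeR adjusted p = 0.1002).

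A second set of candidate targets came from the other line: the genes that the study marked as lowered in U251, in either kind of RNA, sorted by how many of the tools TargetScan, miRanda and PicTar predicted a miR-137 site. They were chosen on libraries that share none with U343. Of 85 tested genes with a site by all 3 tools, 60 were lower in U343 total RNA (70.6%) and 3 higher. Of 208 with a site by 1 or 2 tools, 116 were lower (55.8%) and 7 higher. Of 304 with no predicted site, 60 were lower (19.7%) and 24 higher. Of all genes tested, 11.7% were lower and 8.31% higher. The median log2 fold changes of these classes were -1.14, -0.94 and -0.16, beside 0.02 over all genes tested.

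The order was the same in each miR-137 replicate. For sites by all 3 tools the median was -1.02 in replicate 1 and -1.16 in replicate 2, with 81 of 86 and 81 of 87 genes below 0. For sites by 1 or 2 tools it was -0.95 and -0.89. For genes with no predicted site it was -0.09 in replicate 1 and -0.33 in replicate 2, beside -0.01 and 0.00 over all genes tested. The difference between the replicates in the last class was not tested.

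**Figure D3:**
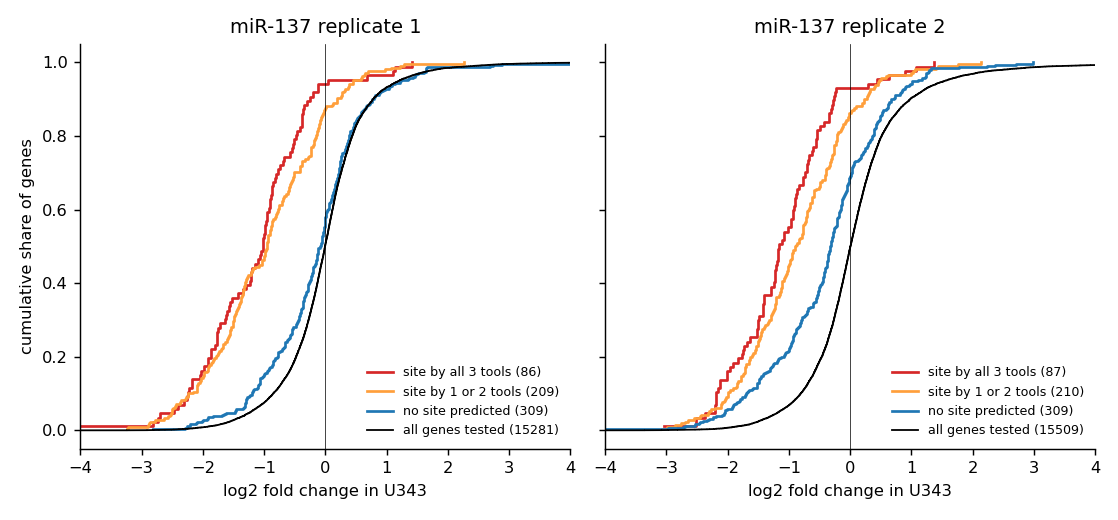
Cumulative share of genes (y axis) against log2 fold change in U343 (x axis), for miR-137 replicate 1 (left) and replicate 2 (right), of genes marked in U251, by predicted site, and of all genes tested (black). Curves to the left are lower. The genes with a site by all 3 tools lie farthest left in both panels at their medians, -1.02 and -1.16, and those with no predicted site lie nearest to all genes tested.

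The genes of cell division fell as a block in both replicates. Of 38 genes of mitosis and the kinetochore, 38 were lower in the fit of both replicates, where 11.7% of all genes were. The log2 fold changes ran from -2.24 to -1.11 in replicate 1 and from -2.15 to -0.76 in replicate 2, with medians of -1.54 and -1.55. The summed level of the list was 5229 and 5299 CPM in the controls and 1685 and 1742 CPM with miR-137. In bulk RNA, fewer dividing cells and less of these transcripts in each dividing cell cannot be told apart.

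AURKA, the kinase that matures centrosomes, had 104 and 110 CPM in the controls and 22.6 and 24.2 CPM with miR-137 (log2 fold change -2.19, SE 0.10, edgeR adjusted p = 0.00647). CENPE, a kinetochore motor, had 124 and 130 CPM against 28.4 and 29.5 CPM (-2.13, SE 0.09), SKA2, which joins kinetochores to microtubules, 75.9 and 73.5 CPM against 18.0 and 17.6 CPM (-2.07, SE 0.09), and CENPF, a large kinetochore protein, 1144 and 1228 CPM against 287 and 314 CPM (-1.98, SE 0.10). The replicates of each group lay close together for these genes, and their errors were small beside the change. These members of the list were named for having its smallest p. That choice favours close replicates and small errors, so neither is added support. Of 34 mitosis genes with a promoter in RefSeq, 25 held the letters CCAAT (73.5%) and 15 the letters TTTGAA (44.1%) on either strand within 250 bases before the start, against 33.0% and 13.6% of 27305 promoters. The first is the box of the factor NF-Y and the second a core of the cell cycle homology region. A match is not a bound site, and CENPE, SKA2 and CENPF hold no TTTGAA in this window.

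DNA replication moved with mitosis. Of 32 genes of the list, 31 were lower in the fit of both replicates, where 11.7% of all genes were, and POLA2 missed the threshold (-0.92, edgeR adjusted p = 0.142). The log2 fold changes ran from -2.39 to -1.02 in replicate 1 and from -1.70 to -0.50 in replicate 2, with medians of -1.59 and -1.35. RRM1, a subunit of ribonucleotide reductase, fell from 392 and 376 CPM to 139 and 129 CPM (-1.52, SE 0.10), and PRIM1, a primase subunit, from 28.9 and 28.5 CPM to 9.61 and 9.57 CPM (-1.58, SE 0.10). RFC4, a subunit of the clamp loader, fell from 73.8 and 74.9 CPM to 24.5 and 26.4 CPM (-1.54, SE 0.09). The summed level of the list was 5673 and 5862 CPM in the controls and 1893 and 2294 CPM with miR-137.

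The regulators of G1 were mixed. Of 20 tested cyclins, kinases, inhibitors, E2F factors and pocket proteins, 9 were lower (45.0%, against 11.7% of all genes), 2 higher (10.0%, near the 8.31% of all genes) and 9 not called. CCNE1, the cyclin of S phase entry, fell from 36.3 and 36.5 CPM to 8.40 and 8.79 CPM (-2.08, SE 0.10). The activators E2F1 and E2F2 fell from 125 and 142 CPM to 55.2 and 51.8 CPM (-1.32, SE 0.11), and from 25.7 and 27.9 CPM to 8.05 and 7.05 CPM (-1.83, SE 0.13). RBL1, a pocket protein and itself an E2F target, fell from 39.4 and 41.1 CPM to 13.1 and 16.0 CPM (-1.47, SE 0.14). The 2 rises were of CDKN1C and CDKN2D, inhibitors of cyclin-dependent kinases, named after their values were seen. CDKN1C went from 24.3 and 30.3 CPM to 64.0 and 55.0 CPM (1.12, SE 0.16).

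The replication-dependent histone genes have transcripts that lack an adenosine tail and are made in S phase. Of 54 tested members, 30 were lower in the fit of both replicates (55.6%, against 11.7% of all genes). None was called higher in that fit. The medians were -1.11 in replicate 1 and -1.89 in replicate 2, and the highest members lay at -0.03 and -0.14. The summed level was 9314 and 12753 CPM in the controls, 5112 CPM in replicate 1 and 3785 CPM in replicate 2, so the controls differed as well. HIST1H1B, a linker histone, had 1105 and 1390 CPM against 350 and 275 CPM (-2.00, SE 0.18), and HIST2H2AB 101 and 143 CPM against 30.2 and 23.0 CPM (-2.19, SE 0.24). HIST1H3J had 94 and 78 reads against 18 and 11, and HIST2H2BF 102 and 142 CPM against 46.8 and 37.9 CPM (-1.53, SE 0.21). These genes are near-identical copies, so reads may be split between them and single members are uncertain.

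**Figure D4:**
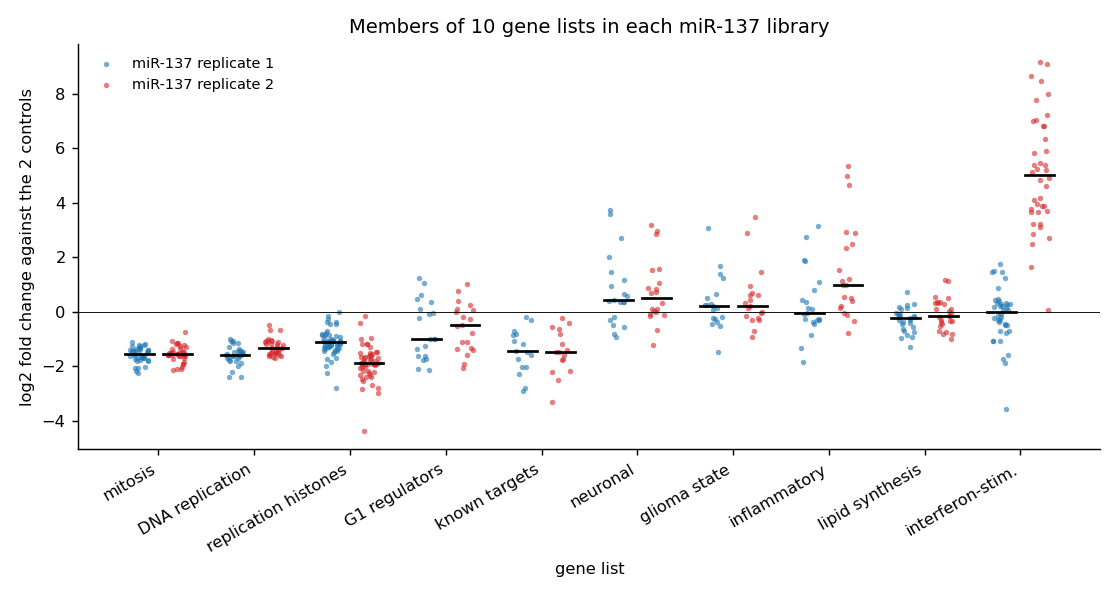
Log2 fold change against the 2 controls (y axis) of every tested member of 10 gene lists (x axis) in miR-137 replicate 1 (blue) and replicate 2 (red). Black bars are medians over members, which are not replicates. The mitosis bars lie at -1.54 and -1.55, while the interferon-stimulated bars lie at -0.01 and 5.03.

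Of 20 tested neuronal genes, 9 rose and 2 fell in the fit of both replicates, where 8.31% and 11.7% of all genes did. L1CAM, an adhesion molecule of growing axons, rose from 1.30 and 1.19 CPM to 15.2 and 11.5 CPM (log2 fold change 3.42, SE 0.22, edgeR adjusted p = 0.00647), and GAP43, a protein of growth cones, from 3.14 and 3.22 CPM to 20.8 and 23.0 CPM (2.78, SE 0.14, edgeR adjusted p = 0.00647). SYP, a protein of synaptic vesicles, rose from 0.953 and 1.08 CPM to 13.6 and 8.06 CPM (3.41, SE 0.34), and CRMP1, which acts in axon guidance, from 119 and 109 CPM to 317 and 237 CPM (1.28, SE 0.17). TUBB3, MAP2, ENO2, DLG4 and STMN3 rose too, and NLGN4X and DBN1 fell by 0.62 and 0.99 on the log2 scale. Of 3 other neuron markers, STMN2 had 0 reads in all 4 libraries, SNAP25 0.106 to 0.261 CPM, and SYT1 75 and 61 reads in the controls and 36 and 68 with miR-137. For L1CAM and GAP43 the interaction with cell line was 3.94 (SE 0.46, edgeR adjusted p = 0.00144) and 3.12 (SE 0.23, edgeR adjusted p = 0.000261).

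Of 32 tested genes of the cilium, 4 rose (12.5%) and 2 fell (6.25%), near the 8.31% and 11.7% of all genes. KIF17, a kinesin of cilia and dendrites, rose from 1.75 and 1.32 CPM to 11.2 and 8.06 CPM (2.64, SE 0.27), BBS9, a part of the BBSome, rose from 14.9 and 13.4 CPM to 28.5 and 25.2 CPM (0.93, SE 0.13), and BBS10 from 23.9 and 23.0 CPM to 33.6 and 33.9 CPM (0.53, SE 0.10). IFT20, a part of the intraflagellar transport train, fell from 23.6 and 22.9 CPM to 13.1 and 14.3 CPM (-0.76, SE 0.11), and its span overlaps that of TMEM97 by 359 bases. The other calls were IFT57, higher by 0.60, and RPGRIP1L at -0.95. The list as a whole had medians of 0.17 in replicate 1 and -0.12 in replicate 2.

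Of 19 tested markers of glioma cell state, 3 rose (15.8%) and 1 fell (5.26%), near the 8.31% and 11.7% of all genes. NES, an intermediate filament of neural progenitors, rose from 5926 and 5175 reads to 17908 and 15549 reads (1.58, SE 0.12), and CD44, the hyaluronan receptor, from 781 and 869 CPM to 1185 and 1334 CPM (0.61, SE 0.10). MET, the receptor of hepatocyte growth factor, fell from 418 and 429 CPM to 150 and 226 CPM (-1.17, SE 0.22). The log2 fold changes of NES and CD44 were higher than in U251 by 2.82 (SE 0.20) and 1.39 (SE 0.18), with edgeR adjusted p of 0.000242 and 0.00213.

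Of 29 tested genes of Polycomb and the REST corepressors, 7 fell (24.1%, against 11.7% of all genes) and 1 rose (3.45%, against 8.31%). Besides EZH2 and KDM1A, REST, the repressor of neuronal genes, fell from 36.6 and 34.6 CPM to 21.7 and 20.3 CPM (-0.76, SE 0.10), and PHF19, a partner of Polycomb complex 2, from 172 and 177 CPM to 113 and 116 CPM (-0.61, SE 0.09), while JARID2 rose by 0.50. Of 26 tested Notch genes, 2 fell (7.69%, against 11.7% of all genes) and none rose (against 8.31%) in the fit of both replicates. HES4, LFNG and NUMBL were common rises. The medians of the list were 0.12 in replicate 1 and 0.24 in replicate 2. The falls were of MIB1, given above, and RBPJ, the DNA-binding effector, which fell from 29.5 and 29.7 CPM to 9.56 and 15.2 CPM (-1.26, SE 0.25). LFNG, which glycosylates Notch, had 24.8 and 14.2 CPM in the controls and 104 and 49.2 CPM with miR-137 (edgeR adjusted p = 0.0525), and the ligand JAG1 249 and 205 CPM against 358 and 304 CPM (edgeR adjusted p = 0.0739).

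Of 27 tested genes of the miRNA machinery, 8 fell (29.6%, against 11.7% of all genes) and 1 rose (3.70%, against 8.31%). DICER1, which cuts miRNA precursors, fell from 115 and 117 CPM to 54.6 and 53.3 CPM (-1.10, SE 0.09, edgeR adjusted p = 0.00724), EIF2C2, the gene of Argonaute 2, from 23.5 and 27.6 CPM to 15.1 and 14.2 CPM (-0.80, SE 0.13), and EIF2C4, of Argonaute 4, from 14.9 and 12.4 CPM to 4.65 and 6.53 CPM (-1.29, SE 0.23). CNOT6, a deadenylase subunit, fell from 24.8 and 24.2 CPM to 11.7 and 12.5 CPM (-1.02, SE 0.11). The rise was of SND1, at 0.40.

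Of 21 tested inflammatory genes, 5 rose (23.8%, against 8.31% of all genes) and none fell in the fit of both replicates. IL1B had 219 and 129 reads in the controls and 1169 and 991 with miR-137, and IL1A 423 and 261 reads against 1234 and 1007. LIF, a cytokine of the IL-6 family, rose from 80.3 and 60.6 CPM to 263 and 524 CPM (2.48, SE 0.39), and TNFAIP2 from 35.9 and 36.7 CPM to 76.4 and 80.6 CPM (1.11, SE 0.09). IL6, given above, was the fifth. Replicate 1 alone gave 6 rises and 4 falls in this list, 28.6% and 19.0% beside 18.4% and 19.3% of all genes. Replicate 2 gave 13 rises, 61.9% beside 19.3%, and no fall.

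Of 32 tested genes of the PI3K and RAS pathways, 5 fell (15.6%) and 4 rose (12.5%), and of 27 of the TGF-beta pathway 2 fell (7.41%) and 3 rose (11.1%). These shares were near the 11.7% and 8.31% of all genes. EGFR, the receptor most often amplified in glioblastoma, fell from 256 and 226 CPM to 97.1 and 118 CPM (-1.16, SE 0.14), while the receptor FGFR1 rose from 383 and 435 CPM to 724 and 926 CPM (1.01, SE 0.16) and the adaptor IRS1 from 43.3 and 47.5 CPM to 78.1 and 82.5 CPM (0.82, SE 0.10). SRC, MTOR, AKT2 and MET were the other falls, and PDGFRB and MAPK3 the other rises. TGFB1 rose from 13.1 and 13.9 CPM to 25.4 and 25.0 CPM (0.91, SE 0.11) and TGFB3 from 10.8 and 12.2 CPM to 18.9 and 20.9 CPM (0.79, SE 0.13), opposite to TGFB2, which with BMPR1B made up the falls. SMURF2, a ubiquitin ligase for SMAD proteins, rose from 60.7 and 60.2 CPM to 94.3 and 103 CPM (0.71, SE 0.09). The hg18 span of TGFB3 overlaps that listed for BCYRN1 over 23651 bases on the same strand, so its count is uncertain.

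Of 28 tested matrix and adhesion genes, 7 rose (25.0%, against 8.31% of all genes) and 3 fell (10.7%, against 11.7%). COL1A1, a chain of type I collagen, had 66 and 72 reads against 339 and 488, ITGA3, an integrin for laminin, rose from 1275 and 1404 CPM to 2167 and 2373 CPM (0.76, SE 0.09), and FBN1, of elastic microfibrils, from 777 and 638 CPM to 1544 and 1415 CPM (1.06, SE 0.13). ITGAV, the vitronectin integrin chain, fell from 355 and 312 CPM to 134 and 127 CPM (-1.35, SE 0.11), and the other falls were of COL4A2 and PXN. Of 25 tested apoptosis genes, 2 rose and 2 fell, smaller shares than the 8.31% and 11.7% of all genes. The inhibitor BIRC5, also a mitotic gene, fell from 230 and 228 CPM to 130 and 104 CPM (-0.97, SE 0.14), and BMF and BCL2L1 rose by 0.86 (SE 0.17) and 0.43 (SE 0.10). The span of BIRC5 lies over that of EPR1 on the other strand for 10463 bases.

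Of 27 tested genes of cholesterol and fatty acid synthesis, 6 fell (22.2%, against 11.7% of all genes) and 1 rose (3.70%, against 8.31%), with FADS2, a fatty acid desaturase, going from 54.1 and 53.3 CPM to 27.4 and 26.7 CPM (-0.99, SE 0.09), and DHCR7, the last enzyme of cholesterol synthesis, from 267 and 312 CPM to 150 and 165 CPM (-0.88, SE 0.12). Of 22 tested stress genes, 3 fell and 3 rose, 13.6% each way and near the 11.7% and 8.31% of all genes. PHGDH, the first enzyme of serine synthesis, fell from 126 and 151 CPM to 31.1 and 37.1 CPM (-2.02, SE 0.15), and ATF3, a stress transcription factor, rose from 19.2 and 19.7 CPM to 80.1 and 165 CPM (2.66, SE 0.38). DDIT4 and HSP90B1 were the other falls, and VLDLR and PPP1R15A the other rises. Of 22 tested targets of p53, 1 fell and 1 rose, 4.55% each way and under the 11.7% and 8.31% of all genes. RRM2B, a p53-induced subunit of ribonucleotide reductase, fell from 78.8 and 60.6 CPM to 21.5 and 19.7 CPM (-1.76, SE 0.16), and PLK3 rose from 14.2 and 12.8 CPM to 27.2 and 30.1 CPM (1.08, SE 0.12).

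The interferon response split the miR-137 libraries. IFNB1, the type I interferon of non-immune cells, had 1 and 1 reads in the controls, 1 read in miR-137 replicate 1 and 817 reads in miR-137 replicate 2, a ratio of 810 in replicate 2 with an exact 95% interval of 223 to 6696. The type III interferon IL29 had 0, 0, 0 and 377 reads in the same order, IL28A 0, 0, 0 and 175, and IL28B 0, 0, 2 and 117. Against a floor of 3 reads over both controls, they were at least 249-fold, 116-fold and 77.3-fold higher in replicate 2. IL28A and IL28B are near-identical, so reads may be shared between them. IFNA1 had 3, 0, 0 and 5 reads, IFNE 10, 12, 5 and 15, IFNK 0, 0, 1 and 0, and IFNG none in any library.

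Of the 40 interferon-stimulated genes, 39 were higher in replicate 2, where 19.3% of all genes were. Their median was 5.03 on the log2 scale, and 32 were over 10-fold above the control mean. The exception was the antiviral GTPase MX1, at 9.46 and 9.61 CPM in the controls, 4.56 CPM in replicate 1 and 10.1 CPM in replicate 2. In replicate 1 the median was -0.01, and 12 members were called lower and 8 higher, where 19.3% and 18.4% of all genes were. The genes called higher in replicate 1 were MX2, OAS1, OASL, USP18, IFI44L, IRF7, IRF9 and IFITM1. The transcription factors IRF7 and IRF9 had 6.52 and 7.31 CPM, and 10.7 and 10.8 CPM, in the controls, 23.2 and 29.7 CPM in replicate 1, and 415 and 196 CPM in replicate 2. So replicate 1 held the summed level of the controls but not the control level of each gene.

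In the fit of both replicates, 0 of the 40 passed in edgeR, with 12 at an unadjusted p under 0.05. The median over the list was 4.05 on the log2 scale. DESeq2 called 18 of the 40 higher. Without miR-137 replicate 2, 12 members were lower and 8 higher, and without replicate 1, 39 were higher, so a single library decides the count. None of the 40 was among the 1254 genes that rose in the fit of both replicates, but 8 were among the 1712 common rises, of which MX2, IRF7 and IRF9 also passed the rule of the study.

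**Figure D5:**
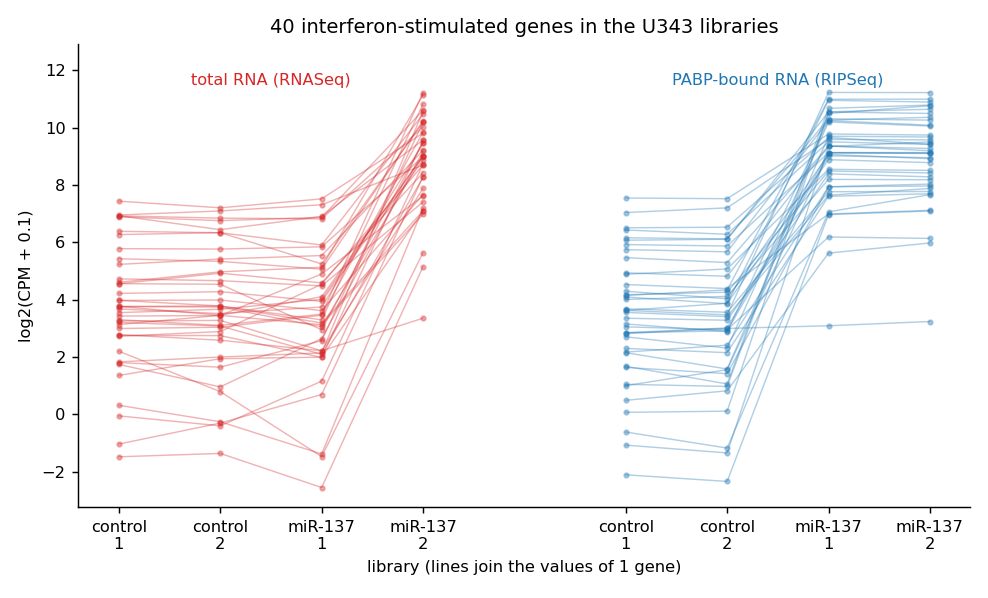
Level of each of 40 interferon-stimulated genes, as log2(CPM + 0.1), in the 4 total RNA libraries (red) and in the 4 PABP-bound libraries (blue) of U343, with lines joining the values of a gene. In total RNA miR-137 replicate 1 lies with the controls and replicate 2 far above them, with summed levels of 1240 and 27547 CPM, while both PABP-bound miR-137 libraries are high, at 29444 and 29396 CPM.

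The genes that differed most between the miR-137 replicates, with 500 or more reads in the higher, were RSAD2, IFIT2, OASL, CXCL10 and IFI27. RSAD2, the antiviral protein viperin, had 3.46 and 3.91 CPM in the controls, 4.32 CPM in replicate 1 and 1517 CPM in replicate 2. IFIT2, which binds foreign RNA, had 9.76 and 8.50 CPM, then 11.2 and 2379 CPM, and OASL 3.40 and 3.03 CPM, then 5.86 and 1168 CPM. The chemokine CXCL10 had 53 and 28 reads, then 12 and 6203, and IFI27 had 12 and 11 reads, then 3 and 1501. CXCL10 was called lower in replicate 1 (log2 fold change -1.73, edgeR adjusted p = 0.0403) and higher in replicate 2 (7.24, edgeR adjusted p = 4.69e-06).

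Many promoters of interferon-stimulated genes hold the interferon-stimulated response element, to which the factor ISGF3 binds. It was searched on either strand, in the 250 bases before the start, as GAAA followed after any 2 bases by another GAAA. Of 31 list members with a RefSeq promoter, 19 held it (61.3%), against 3.07% of 27305 promoters. Of the 5 genes just named, 3 had a promoter in the table, and CXCL10 and IFI27 held a match, shown in capitals in 130 bases of each, 5′ to 3′ along the gene, as GRCh38.p14 chr4:76023618-76023747 (minus strand) and chr14:94110598-94110727 (plus strand). RSAD2 had no match to these letters in this window.
CXCL10: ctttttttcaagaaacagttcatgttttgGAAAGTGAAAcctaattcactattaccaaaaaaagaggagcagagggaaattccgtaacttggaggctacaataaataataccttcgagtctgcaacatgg
IFI27: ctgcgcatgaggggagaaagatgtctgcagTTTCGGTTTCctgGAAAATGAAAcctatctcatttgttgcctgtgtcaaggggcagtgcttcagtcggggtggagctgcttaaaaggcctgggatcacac

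The 5 genes most lower in miR-137 replicate 2 than in replicate 1 had the same order in the controls. TSPAN12, a tetraspanin of Wnt signalling, had 88.3 and 26.0 CPM in control replicates 1 and 2, and 27.6 and 8.04 CPM in miR-137 replicates 1 and 2. The morphogen BMP7 had 31.7 and 8.97 CPM, then 62.3 and 12.8 CPM, and SLC26A7, an anion transporter, 40.4 and 11.0 CPM, then 24.3 and 6.22 CPM. ABAT, the GABA transaminase, had 6.82 and 2.37 CPM, then 16.5 and 4.67 CPM, and LIX1 6.26 and 3.93 CPM, then 38.1 and 11.4 CPM. None of the 5 passed edgeR in the fit of both replicates, and DESeq2 called LIX1 higher (adjusted p = 0.000375). LIX1 was also among the common rises, with log2 fold changes of 2.89 in replicate 1 and 1.14 in replicate 2. By an odds ratio over 2 with an adjusted p under 0.001, 241 genes were lower and 619 higher in miR-137 replicate 2 than in replicate 1, and 64 were lower and 7 higher in control replicate 2 than in control replicate 1, with 33 of the 241 genes lower in both.

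The common changes were then looked up in libraries that share no control with these. In PABP-bound RNA of U343, where 27.8% of 14866 genes were lower and 28.5% higher, 1994 of 2268 common falls were lower (87.9%) and 10 higher, and 1451 of 1706 common rises were higher (85.1%) and 6 lower. The test of transfection by assay found 1 gene of 15413 that differed between total and PABP-bound RNA in edgeR, with 2712 at an unadjusted p under 0.05, and 122 lower and 278 higher in DESeq2. That gene was HIST2H2BE, a histone H2B gene, which fell in total RNA from 220 and 303 CPM to 124 and 136 CPM (-1.01, SE 0.18) and rose in PABP-bound RNA from 18.2 and 16.5 CPM to 66.8 and 64.7 CPM (1.92, SE 0.09). The difference was -2.93 (SE 0.22, edgeR adjusted p = 0.0456), and it was not called with the replicate block or with a minimum of 50 reads. Both PABP-bound miR-137 libraries carried the interferon response, with 618 and 919 reads of IFNB1 against 1 and 0 in their controls. The labels do not say whether a total RNA library and a PABP-bound library of the same number came from the same dishes. Of the 117 genes lower in miR-137 replicate 1 and higher in replicate 2, 98 were higher in PABP-bound RNA and 1 lower, and of the 15 with the reverse pattern 14 were lower.

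In U251 total RNA, where 29.0% of 13052 genes were lower and 28.7% higher, 1188 of 2162 common falls were lower (54.9%) and 221 higher, and 672 of 1512 common rises were higher (44.4%) and 289 lower. The interaction of transfection with cell line was tested on 15550 genes, of which 1977 had a lower log2 fold change in U343 (12.7%) and 1945 a higher one (12.5%). Of the 38 mitosis genes, 36 fell more in U343, and 22 were lower in U251 itself. AURKA had an interaction of -1.77 (SE 0.15, edgeR adjusted p = 0.000469) and SKA2 of 0.24 (SE 0.20, edgeR adjusted p = 0.431), and the other exception was SKA1. MITF and CD83 fell more in U343, by -2.24 (SE 0.25) and -2.02 (SE 0.35), and CXCL14 and CDK6 fell less, by 2.18 (SE 0.34) and 0.74 (SE 0.20). The U343 and U251 libraries were made with different cDNA chemistry, and cell line and chemistry cannot be told apart. The interferon response differed as well, since all 40 interferon-stimulated genes were higher in U251 (median 4.82 on the log2 scale), against 1 of the 2 miR-137 libraries in U343, and its part in these interactions was not tested.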

How the data were processed

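Total RNA of U343 cells was depleted of ribosomal RNA and made into libraries with the TotalScript and Nextera chemistry, and sequenced for 36 cycles on a GAIIx. The authors used RMAP for alignment to hg18, and counted reads on 1 merged transcript per RefSeq gene. The deposited values are raw read counts for 20626 genes, with no normalization, and how reads with several matches were counted is not given in the sources used here. Starts were made 1-based.

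Tests used edgeR 4.0.16 (R 4.3.3; quasi-likelihood F test, TMM factors, filterByExpr, Benjamini-Hochberg adjusted p under 0.05). SE was the log2 fold change divided by the square root of F. Each miR-137 library was also fitted alone against both controls, where the lone library is assumed to vary like the others. Interactions used 8 libraries. The rule of the study was two-sided Fisher's exact tests (scipy 1.17.1). The scripts were tested on simulated data. Alternatives were DESeq2 1.42.0, other scalings and filters, a joint fit, a replicate block and each library left out. The predicted-site classes and the motif search were added after seeing the data. Intervals at low counts are exact 95% intervals of counting error, and reads without molecular identifiers are not independent molecules.

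Members and gene lists were chosen with earlier results of these data known. Genes named are MIR137, the 12 largest falls and 10 largest rises that passed edgeR and the rule of the study with 50 or more reads on average in the higher group, the 5 genes most higher and the 5 most lower in miR-137 replicate 2 than in replicate 1 with 500 or more reads, the oncogene, known target and interferon ligand lists, and up to 4 members of every other list by smallest p. Olfactory receptor genes, 12 of them in the table, summed to 0.0792 to 0.165 CPM as background. Replicates are numbered by their labels, which do not say that they are separate cultures. Seed matches in 3′ UTRs were not counted, because no UTR sequence was given. A few list members are counted with their lists but not reported here by name.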

Additional observations from a re-analysis of the deposited data

Results flagged for a closer look

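For 24 named genes the effect of miR-137 on total RNA differed between U343 and U251 by the interaction of transfection with cell line (edgeR adjusted p under 0.05). The values below are the log2 fold change in U343 minus that in U251, so a negative value is a lower fold change in U343. The U343 and U251 libraries were made with different cDNA chemistry, which cannot be told apart from the cell line.

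Among the deepest falls in U343, the difference was -2.24 for MITF (edgeR adjusted p = 0.00123), -2.02 for CD83 (0.0054) and -1.99 for SLC46A3 (0.0162). It was -1.55 for PDLIM3 (0.0206), -0.887 for SLC25A5 (0.0187) and -5.07 for FMO2 (0.00416). FMO2 had too few reads in U251 to be tested in that line alone, so the size of its difference is uncertain. CXCL14 and CDK6 went the other way, at 2.18 (0.00373) and 0.745 (0.0308). Among the steepest rises it was 3.67 for CELF3 (0.0219), 3.53 for KRT75 (0.00426), 3.19 for IL6 (0.0252) and 2.37 for IL11 (0.000751).

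Among the oncogenes it was 2.70 for CD24 (edgeR adjusted p = 0.000242), 1.499 for MSI1 (0.0134), 1.03 for TGFB2 (0.00527), 0.947 for CDC42 (0.00653) and 5.37 for KIT (0.00572), whose U343 libraries hold 1 to 8 reads each. Among the known targets it was 1.27 for EIF2S3 (0.00258), 1.15 for MIB1 (0.00756) and 0.814 for CTBP1 (0.00869), and -1.36 for SPHK2 (0.0128), -1.15 for EZH2 (0.00315), -1.07 for SEMA4D (0.0325) and -0.600 for ESRRA (0.0414).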

How the results depend on the processing

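The fit of both miR-137 replicates depended strongly on its libraries. Leaving out 1 library gave from 0 to 3152 genes lower and from 0 to 2994 higher, with 0 and 0 without either control (smallest edgeR adjusted p 0.151 and 0.17), 3152 and 2994 without miR-137 replicate 1, and 2951 and 2811 without miR-137 replicate 2. The joint fit of 8 libraries gave 2768 lower and 2265 higher, and DESeq2 gave 1958 higher. DESeq2 also gave 1845 genes higher in replicate 1 and 1096 common rises. The replicate number as a block gave 1456 lower and 1076 higher, of which 1376 and 903 were among the 1764 and 1254. Of 103 named genes called, DESeq2, upper-quartile scaling and the joint fit kept 103, library totals 102 and the block 99, and none was kept without either control. Among the 22 not called, the block called 6, with TSPAN12 (edgeR adjusted p = 0.0146), LIX1 (0.0291), ABAT (0.0303) and SLC26A7 (0.0331) among them. With 2 pairs, the labels give same-numbered libraries only a shared number, and their deviations correlated at 0.13 over 12868 genes. Some differences did follow the number: of 64 genes lower in control replicate 2, 33 were also lower in miR-137 replicate 2. The main fit leaves the number out. The share of lower calls was 58.4% with TMM, 54.7% with upper-quartile scaling and 64.2% with library totals only.

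Of the 40 interferon-stimulated genes, DESeq2 called 18 higher and the joint fit 15, and leaving out 1 library gave 0 to 39. CXCL10 had a log2 fold change of 6.26 with both replicates, 7.24 without miR-137 replicate 1 and -1.73 without miR-137 replicate 2. By the rule of the study, an odds ratio over 1.5 gave 1321 lower and 732 higher, and leaving out 1 library gave 394 to 914 higher. For transfection by assay, DESeq2 gave 122 lower and 278 higher, and both the replicate block and a minimum of 50 reads gave 0. Replicate comparisons without a control leave 1 library against 1, so no count was given, and seed matches were not run.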
